A study of Mus musculus with 4 samples.

Results

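The 10 genes described here serve the handling of dietary fat and vitamin A in enterocytes, the absorptive cells of the small intestine, and were chosen for that role, with earlier results of these data known. The genes are Fabp1, Fabp2, Rbp2, Dgat1, Apob, Mttp, Apoa1, Apoc3, Apoa4 and Apobec1. A named probe gave values for 9 of the 10, among 15123 measured genes. Apob had no named probe and was not analysed here.

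The cultures were small intestinal epithelium of single wild-type CD1 mice, cultured in Matrigel (a gel of basement membrane proteins) with EGF, Noggin, R-spondin1 and fetal bovine serum. From each animal, spheroids (hollow epithelial cysts) and organoids (budding structures with crypt-like domains) were picked apart and replated, and RNA of both was hybridised against each other on 2-colour arrays. There were 4 spheroid/organoid pairs from 4 animals: 2 from embryonic day 16 (E16), 1 from embryonic day 18 (E18) and 1 from the day of birth (postnatal day 0, P0). Each value is a log2 ratio within an animal, and its direction is taken to be, likely, spheroid over organoid, since the labels give the spheroid first. No label states the numerator, and every direction below would turn with it. A ratio of -1 means that the spheroid signal was likely a 2-fold step below that of the organoid, and no signal level was available for either culture.

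Fat absorption in enterocytes runs through several steps. Fatty acids and monoglyceride from the gut lumen are bound by cytosolic carriers, rebuilt into triglyceride at the endoplasmic reticulum, loaded onto apolipoprotein B and secreted as chylomicrons. Vitamin A follows the same route, since retinol is bound by a cellular retinol-binding protein, esterified and packed into the same particles. In the mouse these genes are known to be active in the fetal and neonatal gut and in mature villus enterocytes.

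At E16 all 9 measured genes had ratios below 0 in both pairs, and 8 of them were below -1 in both, against 2.61% of all genes. In the later pairs the ratios lay nearer to 0 or above it. The median over the 9 genes was -2.47 and -2.71 in the E16 pairs, 0.53 in the E18 pair and -0.87 in the P0 pair, while the median of all genes lay between -0.0035 and 0.003 in these columns. Each of the 9 genes had both later ratios above both E16 ratios, as had 25.9% of all genes. In cultures such as these, fewer enterocytes and less RNA per enterocyte cannot be told apart.

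**Figure D1:**
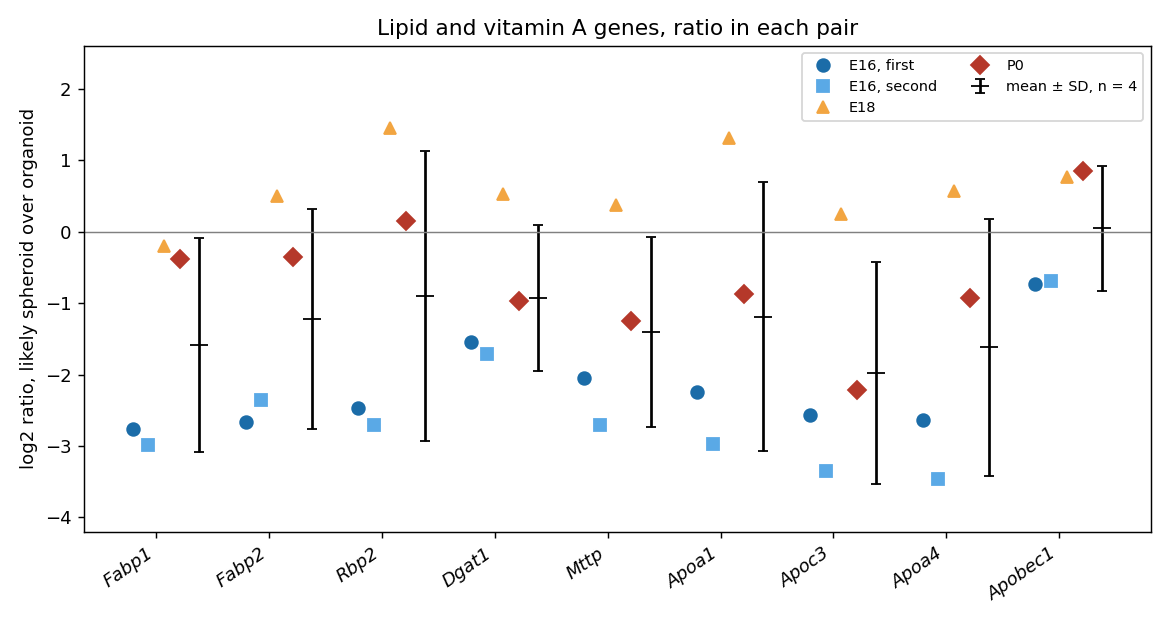
Log2 ratio (vertical axis, likely spheroid over organoid) of the 9 measured genes in each pair, with the mean and SD of the 4 pairs as a bar beside them. The E16 points lie between -3.47 and -0.70 and the E18 and P0 points between -2.22 and 1.45, and within each gene both later points lie above both E16 points.

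Tests set the mean ratio of the E16 pairs against 0, the later pairs against the E16 pairs, and the mean of all 4 pairs against 0, in limma. P-values were adjusted across the 15123 genes by the Benjamini-Hochberg method, and an adjusted p under 0.05 counted as passing. The spread in the E16 test came from both sets of pairs, so the gap between the E18 and P0 pairs entered every SE at E16. At E16, 3 of the 9 genes passed, all lower: Fabp1, Fabp2 and Apobec1. These 3 had the smallest gaps of the 9, with P0 minus E18 of -0.18, -0.86 and 0.07. Apoa4 and Apoc3 had lower E16 means (-3.05 and -2.96) but P0 minus E18 of -1.50 and -2.46, and did not pass. Passing thus does not mark the genes lowest at E16. Over all genes 3.63% passed, 1.8% in the lower direction. All 9 had an unadjusted p under 0.05 at E16, against 25.6% of all genes, 12.2% in the lower direction. In the stage comparison 0 of 9 genes passed in limma, as did 0 of all 15123 genes (0%). There 6 of the 9 had an unadjusted p under 0.05, all higher in the later pairs, against 19.1% of all genes, of which 9.48% were higher and 9.59% lower. With all 4 pairs together 0 of 9 passed in limma, where 4.36% of all genes passed, 1.34% lower and 3.02% higher. Apoc3 alone of the 9 had an unadjusted p under 0.05 there, against 20.9% of all genes, 8.99% in the lower direction. The adjusted p of the 9 genes over all 4 pairs lay between 0.212 and 0.967.

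The cytosolic fatty acid carriers come first in the route. Fabp1 (Entrez gene 14080) encodes the liver-type fatty acid-binding protein, which enterocytes also hold in large amounts. Its ratio was -2.77 and -2.99 in the E16 pairs, -0.20 in the E18 pair and -0.38 in the P0 pair. All 4 ratios were below 0, as for 14.4% of all genes and for no other of the 9, and the E16 and later pairs did not overlap. The E16 mean of -2.88 (SE 0.09) is a 7.36-fold lower signal in spheroids, with a limma adjusted p of 0.0229, equal to the smallest of any gene in that comparison. The mean was -0.29 in the later pairs and -2.88 in the E16 pairs, a difference of 2.59 (SE 0.12) with an adjusted p of 0.0834. The mean of the 4 pairs was -1.59 ± 1.50 (SD, n = 4), with a limma adjusted p of 0.278.

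Fabp2 (Entrez gene 14079) encodes the intestinal fatty acid-binding protein, best known from enterocytes. Its ratio was -2.67 and -2.36 in the E16 pairs, 0.51 in the E18 pair and -0.36 in the P0 pair. The E18 and P0 pairs lay on either side of 0, both well above the E16 pairs. At E16 the mean of -2.51 (SE 0.26) had an adjusted p of 0.0476. This call was lost (2 of 9 genes left) with columns scaled to the same spread, with 1 probe per gene, with probes in place of genes and with a robust prior. The difference between later and E16 pairs was 2.59 (SE 0.36), with an adjusted p of 0.105.

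Vitamin A enters through Rbp2 (Entrez gene 19660), the cellular retinol-binding protein of the enterocyte, which holds retinol and retinal in the cytosol. Its ratio was -2.47 and -2.71 in the E16 pairs, 1.45 in the E18 pair and 0.14 in the P0 pair. Rbp2 was thus below 0 in both E16 pairs and above 0 in both later pairs, a pattern that Apobec1 also had and that 8.45% of all genes shared. With a mean of 0.79 in the later pairs and -2.59 in the E16 pairs, the difference of 3.39 (SE 0.52) was the widest of the 9 genes and ranked 5 among all genes, with an adjusted p of 0.111. The E16 mean alone had an adjusted p of 0.0642.

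Dgat1 (Entrez gene 13350) encodes diacylglycerol acyltransferase 1, which completes triglyceride and can also esterify retinol. Its ratio was -1.55 and -1.71 in the E16 pairs, 0.53 in the E18 pair and -0.96 in the P0 pair. The P0 pair lay closer to the E16 pairs than to the E18 pair. The mean was -0.22 in the later pairs and -1.63 in the E16 pairs, a difference of 1.41 (SE 0.59) with an adjusted p of 0.348.

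Mttp (Entrez gene 17777) encodes the large subunit of the microsomal triglyceride transfer protein, which loads lipid onto apolipoprotein B. Its ratio was -2.05 and -2.71 in the E16 pairs, 0.38 in the E18 pair and -1.26 in the P0 pair. Again the E18 ratio alone was above 0. The difference between later and E16 pairs was 1.94 (SE 0.69) with an adjusted p of 0.290, and the E16 mean of -2.38 (SE 0.49) had an adjusted p of 0.0958.

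Apoa1, Apoc3 and Apoa4 are exchangeable apolipoproteins that lie next to each other on chromosome 9. Apoa1 (Entrez gene 11806) encodes the main protein of high-density lipoprotein. Its ratio was -2.24 and -2.97 in the E16 pairs, 1.32 in the E18 pair and -0.87 in the P0 pair. Apoc3 (Entrez gene 11814) encodes an inhibitor of lipoprotein lipase. Its ratio was -2.57 and -3.36 in the E16 pairs, 0.24 in the E18 pair and -2.22 in the P0 pair. For Apoc3 the P0 pair lay just above the E16 pairs and 2.46 below the E18 pair, the widest spread of the later pairs among the 9 genes. Apoa4 (Entrez gene 11808) encodes a chylomicron apolipoprotein made mainly in the intestine. Its ratio was -2.64 and -3.47 in the E16 pairs, 0.56 in the E18 pair and -0.93 in the P0 pair, as the mean of 2 probes. Both Apoa4 probes ran the same way, at -2.53 and -2.75 in the first E16 pair and 0.55 and 0.58 in the E18 pair.

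In all 3 of these apolipoprotein genes the second E16 pair was the lowest and the E18 pair the highest. The E16 means of Apoa1, Apoc3 and Apoa4 were -2.60, -2.96 and -3.05, with ranks 27, 10 and 7 from the lowest of all genes. Their adjusted p at E16 was 0.123, 0.119 and 0.0695. The later minus E16 differences were 2.83 (SE 0.90), 1.98 (SE 1.01) and 2.87 (SE 0.67), with adjusted p of 0.251, 0.437 and 0.169.

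Apobec1 (Entrez gene 11810) encodes the cytidine deaminase that edits the apolipoprotein B mRNA, so that the intestine makes the short form of that protein. Its ratio was -0.73 and -0.70 in the E16 pairs, 0.77 in the E18 pair and 0.84 in the P0 pair. The pairs were 0.0355 apart at E16 and 0.071 apart later, and the sets had opposite signs. The E16 mean of -0.72 (SE 0.04) is a 1.64-fold lower signal in spheroids (limma adjusted p = 0.0334). The mean was 0.81 in the later pairs and -0.72 in the E16 pairs, a difference of 1.52 (SE 0.06). Its adjusted p of 0.0829 was equal to the smallest of any gene in the stage comparison. The opposite signs left a mean over the 4 pairs of 0.05 ± 0.88 (SD, n = 4).

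The 9 genes differed in how the E18 and P0 pairs stood to each other. The P0 ratio was below the E18 ratio in 8 of 9 genes, as for 48.1% of all genes, by 0.18 (Fabp1) to 2.46 (Apoc3). Apobec1 was the exception, with P0 above E18 by 0.07. In order of the E16 mean, from the lowest, the genes were Apoa4, Apoc3, Fabp1, Apoa1, Rbp2, Fabp2, Mttp, Dgat1 and Apobec1. Apoa4 lay below Apoc3, and Fabp1 below Apoa1, in both E16 pairs. The other neighbouring genes from Apoc3 to Mttp changed places between the E16 pairs, so the order is not fixed there. Dgat1 lay above Mttp and Apobec1 above Dgat1 in both E16 pairs.

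**Figure D2:**
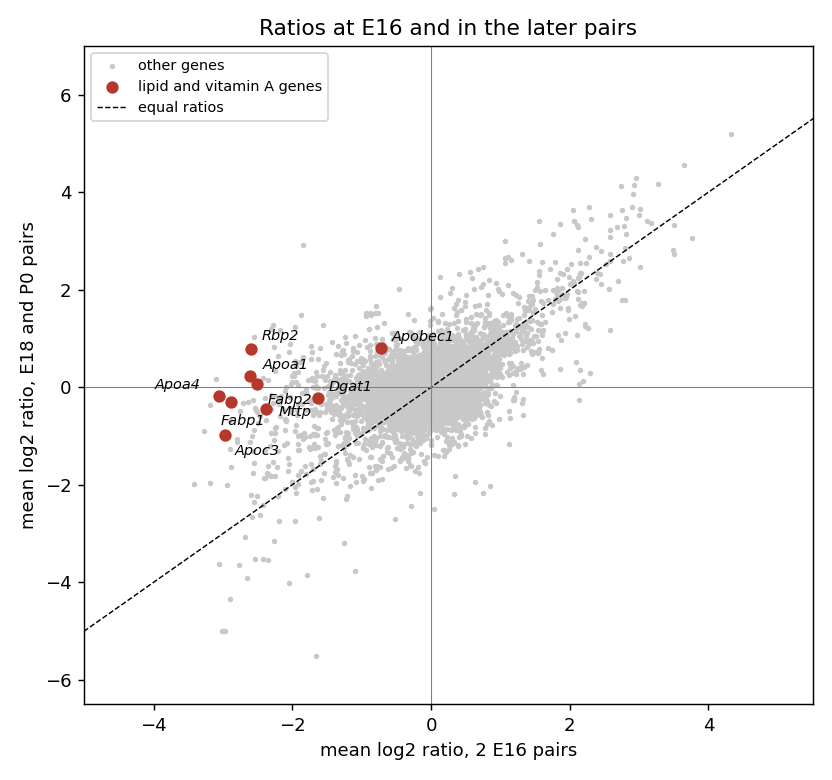
Mean log2 ratio of the E18 and P0 pairs (vertical axis) against that of the E16 pairs (horizontal axis) for all 15123 genes, 1 point a gene, with the 9 lipid and vitamin A genes in red. All 9 lie above the dashed line of equal ratios, 8 of them at E16 means between -3.05 and -1.63 with later means between -0.99 and 0.79.

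These tests rest on few animals. The E18 and P0 stages have 1 animal each. Without either E16 pair 0 of 9 genes passed at E16 in limma, as did 0 of all genes, with the spread then taken from the E18 and P0 pairs alone. Without the E18 or the P0 pair all 9 passed at E16, where 21.9% of all genes did, with the spread then taken from the E16 pairs alone. Without the P0 pair all 9 genes passed in the stage comparison (10.2% of all genes), and without the E18 pair Apobec1, Fabp1, Fabp2 and Rbp2 passed (2.93%); in both, the single later pair adds nothing to the estimated spread.

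The promoters are shown because the 9 measured genes shared the order of the stages. Of the 10 genes 8 had a promoter window in the RefSeq table (build GRCm38.p6), 7 measured genes and Apob, which has no ratio here, and the 250 bases before the annotated start were searched on both strands. Motifs searched were CAAAGTCCA, a form bound by the nuclear receptor HNF4, the HNF1 palindrome, a direct repeat of AGGTCA with 1 base between (a form bound by nuclear receptors) and TATAAA. The form CAAAGTTCA was added after these sequences were read. No motif overlapped another in these windows. TATAAA stood in 4 of 8 windows (Apob, Apobec1, Fabp1 and Rbp2), against 12.4% of 32851 windows of the same length. CAAAGTTCA stood in 3 of 8 (Apoa4, Apobec1 and Rbp2) and in 0.335% of all windows, but since it was picked from these same 8 windows the count only describes them. CAAAGTCCA, the HNF1 palindrome and the direct repeat stood in 0 of 8, against 0.384%, 0.00913% and 0.0335% of all windows. A match is a string of letters, and binding was not measured.

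The 4 windows below are those with CAAAGTTCA and that of Fabp1, which of the 9 genes had the lowest adjusted p at E16. They lie at chr9:46240594-46240843 (plus strand) for Apoa4, chr9:98490287-98490536 (plus strand) for Rbp2, chr6:122602445-122602694 (minus strand) for Apobec1 and chr6:71199629-71199878 (plus strand) for Fabp1. Capitals mark CAAAGTTCA and TATAAA, or their reverse complement where the match is on the other strand.
Apoa4: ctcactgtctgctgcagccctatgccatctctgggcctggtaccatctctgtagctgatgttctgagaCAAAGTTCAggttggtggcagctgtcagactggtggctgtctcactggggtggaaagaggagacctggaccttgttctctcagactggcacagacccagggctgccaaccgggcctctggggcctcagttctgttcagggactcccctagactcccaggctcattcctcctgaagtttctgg
Rbp2: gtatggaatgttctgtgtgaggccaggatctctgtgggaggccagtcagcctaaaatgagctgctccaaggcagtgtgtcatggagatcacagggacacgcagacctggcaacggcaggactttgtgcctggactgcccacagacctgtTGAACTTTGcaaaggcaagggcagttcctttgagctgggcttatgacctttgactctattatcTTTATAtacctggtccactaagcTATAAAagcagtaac
Apobec1: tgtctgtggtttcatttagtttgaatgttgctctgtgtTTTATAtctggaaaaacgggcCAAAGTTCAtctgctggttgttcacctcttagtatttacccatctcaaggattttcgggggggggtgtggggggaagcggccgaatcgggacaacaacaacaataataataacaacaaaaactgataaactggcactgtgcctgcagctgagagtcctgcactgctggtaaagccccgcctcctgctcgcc
Fabp1: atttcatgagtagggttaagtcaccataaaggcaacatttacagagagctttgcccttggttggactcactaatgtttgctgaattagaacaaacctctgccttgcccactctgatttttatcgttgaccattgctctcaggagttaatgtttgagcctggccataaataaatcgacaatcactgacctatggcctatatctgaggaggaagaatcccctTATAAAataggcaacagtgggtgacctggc
CAAAGTTCA began 182 bases before the start in Apoa4, 191 in Apobec1 and 101 in Rbp2, where it was on the other strand. TATAAA began 30 bases before the start in Fabp1, 212 in Apobec1 on the other strand, and 15 and, on the other strand, 38 in Rbp2. The 3 genes with CAAAGTTCA had later minus E16 differences of 2.87 (Apoa4), 3.39 (Rbp2) and 1.52 (Apobec1). The measured genes whose window lacked it had 2.59 (Fabp1), 2.59 (Fabp2), 2.83 (Apoa1) and 1.94 (Mttp), within the same range.

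Genes beside the members on the chromosome did not share their ratios for the most part. The 3 measured genes on each side of each member gave 42 different genes that were not members. Of these, 2 were below -1 in both E16 pairs (2.61% of all genes) and 16 had both later ratios above both E16 ratios (25.9% of all genes). Their median E16 mean was -0.03, within the span of the negative control probes (-0.10 to 0.10), as was the E16 mean of Apoa5 (0.01). Without signal levels, equal signal and no signal in either culture cannot be told apart for such genes. In the apolipoprotein cluster, Apoa5, the next apolipoprotein gene after Apoa4, had ratios of -0.02 and 0.05 in the E16 pairs, 0.01 in the E18 pair and 0.04 in the P0 pair. Sik3, on the other side of Apoa1, had ratios between -0.13 and 0.26. Pafah1b2 was higher in spheroids over all 4 pairs, at 0.54 on average, with a limma adjusted p of 0.0235.

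**Figure D3:**
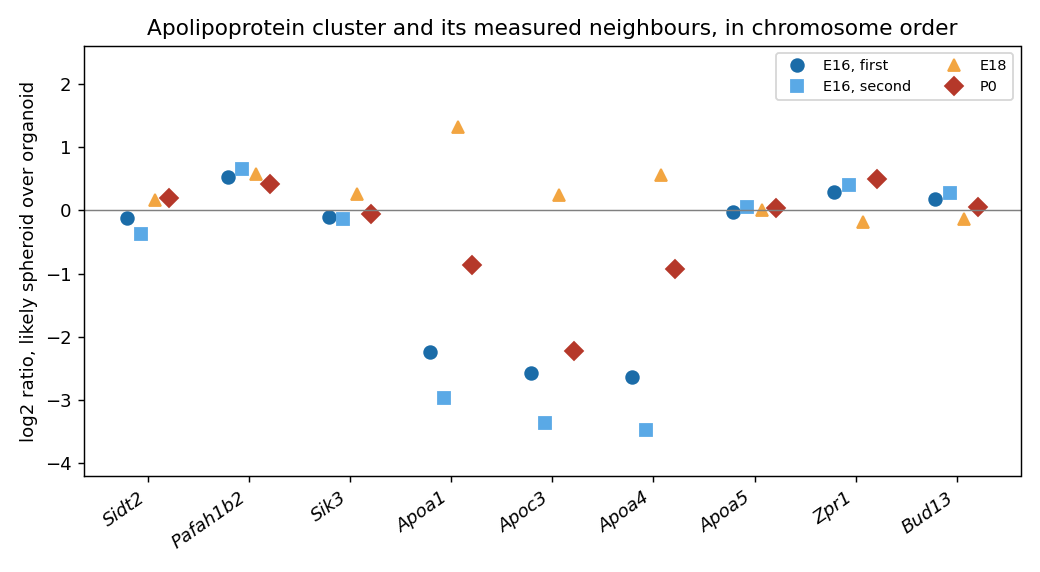
Log2 ratio (vertical axis) in each pair for Apoa1, Apoc3, Apoa4 and the measured genes beside them, in chromosome order. Apoa1, Apoc3 and Apoa4 lie between -3.47 and -2.24 at E16, while the neighbours lie between -0.37 and 0.66.

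Both neighbours below -1 were metabolic genes. Adh1, an alcohol dehydrogenase that can oxidise retinol and lies near Mttp, had ratios of -3.26 and -3.29 in the E16 pairs, 1.11 in the E18 pair and -2.91 in the P0 pair. Only the E18 pair was above 0. Thnsl2, a threonine synthase-like gene beside Fabp1, had ratios of -1.99 and -1.29 in the E16 pairs, -0.61 in the E18 pair and -1.06 in the P0 pair.

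The genes whose ratios were most like the median of the 9 members, by Euclidean distance over the 4 pairs in log2 units, were Dpep1, a dipeptidase of the cell surface (distance 0.17), Cyp2d10 (0.48), Rgn (0.49), Cyp2c40 (0.54) and Lrrc19 (0.58). Dpep1 had ratios of -2.45 and -2.68 in the E16 pairs, 0.36 in the E18 pair and -0.89 in the P0 pair. Cyp2c40, a cytochrome P450, was the only gene of these 5 to pass at E16, with an adjusted p of 0.0443. Among the members themselves the distance ran from 0.59 (Mttp) to 3.17 (Apobec1).

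Other genes of fatty acid uptake and binding were mixed. Of 13 measured, 2 passed at E16, both lower: the fatty acid translocase Cd36 and the acyl-CoA-binding protein Dbi. Cd36 had ratios of -1.85 and -2.05 in the E16 pairs, 0.34 in the E18 pair and -0.11 in the P0 pair (adjusted p at E16 = 0.0371). Dbi had ratios of -1.02 and -1.09 in the E16 pairs, 0.27 in the E18 pair and 0.18 in the P0 pair (adjusted p at E16 = 0.0295), with a stage difference of 1.28 and an adjusted p of 0.0834. Slc27a4, a fatty acid transport protein, had a stage difference of 1.26 and an adjusted p of 0.0923. Over all 4 pairs Slc27a2, another transport protein, was lower at -2.36 ± 0.71 (SD, n = 4) (adjusted p = 0.041), and Fabp5, a fatty acid-binding protein best known from skin, was higher at 1.79 ± 0.61 (SD, n = 4) (adjusted p = 0.0498), with its highest ratio in the P0 pair. In 5 of the 13 both later ratios lay above both E16 ratios, against 25.9% of all genes.

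Triglyceride synthesis and lipid droplet genes had a median E16 mean of -0.48 over 22 measured, and 15 of the 22 had both later ratios above both E16 ratios. At E16 2 passed lower and 1 higher. The lower ones were the lipid droplet protein Plin3, with ratios of -1.37 and -1.31 in the E16 pairs, -0.05 in the E18 pair and -0.07 in the P0 pair (adjusted p at E16 = 0.0229), and Dgat2, the second diacylglycerol acyltransferase. Dgat2 had ratios of -1.20 and -1.36 in the E16 pairs, 0.18 in the E18 pair and 0.42 in the P0 pair (adjusted p at E16 = 0.0362). Both had later ratios nearer to 0 or above it. Abhd5, the coactivator of adipose triglyceride lipase, was higher in spheroids in every pair, at 0.89 ± 0.10 (SD, n = 4) over 4 pairs (adjusted p = 0.013). The phosphatidate phosphatase Lpin1 had a stage difference of 1.01 (adjusted p = 0.0923). The acyltransferases Gpam and Agpat3 averaged -0.19 and -0.98 over 4 pairs and did not pass, with adjusted p of 0.0788 and 0.0848, and 1 of the 2 probes of Gpam averaged 0.0045.

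Of 16 measured genes of chylomicron assembly, export and exchangeable apolipoproteins, 1 passed at E16, Lpcat3, which remodels membrane phospholipid. Lpcat3 had ratios of -1.19 and -1.32 in the E16 pairs, 0.86 in the E18 pair and 0.52 in the P0 pair (adjusted p at E16 = 0.0421). P4hb, protein disulfide isomerase and the small subunit of the microsomal triglyceride transfer protein, had ratios of -0.93 and -1.53 in the E16 pairs, 0.10 in the E18 pair and 0.18 in the P0 pair. Like Mttp, its partner, P4hb had both later ratios above both E16 ratios, with a stage difference of 1.37 and an adjusted p of 0.126. Mia2, which helps large cargo leave the endoplasmic reticulum, had a stage difference of 0.40 (adjusted p = 0.135). The coat protein Sec23a averaged -0.83 over 4 pairs, the GTPase Sar1a 0.22 and the phospholipid transfer protein Pltp 0.08, none past the threshold. Both later ratios lay above both E16 ratios in 8 of the 16, against 25.9% of all genes. All 8 were genes of assembly and export, and the apolipoprotein genes of this list did not have that order.

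Of 10 measured sterol transport genes 0 passed in any of the 3 comparisons in limma. At an unadjusted p under 0.05 there were 5 of 10 at E16 (25.6% of all genes) and 4 over all 4 pairs (20.9%), all lower, and 3 between stages (19.1%), all higher. The sterol exporters Abcg5 and Abcg8 averaged -2.05 ± 0.90 (SD, n = 4) and -0.93 ± 0.50 (SD, n = 4) over 4 pairs, with adjusted p of 0.0788 and 0.112. The lysosomal sterol carrier Npc2 averaged -0.50 ± 0.23 (SD, n = 4) (adjusted p = 0.0845). Stage differences were 0.76 for Abcg8, 1.62 for the lysosomal lipase Lipa and 0.48 for the sterol carrier Stard4, with adjusted p of 0.24, 0.154 and 0.177.

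Of 28 measured vitamin A genes, 1 passed lower at E16, the retinol saturase Retsat. Retsat had ratios of -1.77 and -2.01 in the E16 pairs, 0.77 in the E18 pair and 0.27 in the P0 pair (adjusted p at E16 = 0.0421), below 0 and above 0 in the same pairs as Rbp2. Over all 4 pairs 1 gene passed, Rdh10, a retinol dehydrogenase of the retinoic acid route. Rdh10 was higher in spheroids at 2.02 ± 0.39 (SD, n = 4) (adjusted p = 0.0227), the opposite sign to Rbp2 at E16. Aldh1a3, which makes retinoic acid, averaged 0.24 (adjusted p = 0.0536) and Lrat, the retinol esterifying enzyme, -0.48 ± 0.17 (SD, n = 4) (adjusted p = 0.0575). The dehydrogenases Adh7 and Dhrs4 had stage differences of 1.26 and 1.58, with adjusted p of 0.104 and 0.112. In 14 of the 28 both later ratios lay above both E16 ratios, and 13 of the 28 had a 4-pair mean no further from 0 than the negative control probes reached. Aldh1a1, a retinal dehydrogenase chosen after its values were seen, had ratios of -1.77 and -1.98 in the E16 pairs, 2.24 in the E18 pair and 0.71 in the P0 pair.

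Cofactors and relatives of apolipoprotein B mRNA editing had medians above 0 in each pair, between 0.20 and 0.41. Of 6 measured, the RNA-binding proteins Celf2 and Syncrip passed higher over 4 pairs, at 2.47 ± 0.49 (SD, n = 4) (adjusted p = 0.0229) and 0.44 ± 0.09 (SD, n = 4) (adjusted p = 0.0266). Celf2 also passed higher at E16 (adjusted p = 0.0445), with a stage difference of 0.70 (adjusted p = 0.323). The 5 probes of Syncrip disagreed, since 1 of them averaged -0.37. Rbm47, a cofactor of the editing enzyme, had ratios of -0.52 and -0.60 in the E16 pairs, 0.48 in the E18 pair and 0.23 in the P0 pair. Like Apobec1 it was below 0 at E16 and above 0 later, and its stage difference of 0.92 had an adjusted p of 0.0943. Apobec3, a related deaminase, averaged 0.44 over 4 pairs (adjusted p = 0.088), and the RNA-binding Khsrp had a stage difference of 0.07 (adjusted p = 0.727).

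Of 25 measured transcription factors known to act on enterocyte lipid genes, 5 passed lower at E16: Creb3l3, Gata6, Nr1h3, Prdm1 and Mlxipl. Creb3l3, a membrane-bound factor that drives apolipoprotein genes, had ratios of -2.93 and -3.28 in the E16 pairs, 0.44 in the E18 pair and -0.09 in the P0 pair. Its adjusted p was 0.0335 at E16 and 0.0915 for the stage difference of 3.28. Gata6, a zinc finger factor of the gut, had ratios of -0.74 and -0.79 in the E16 pairs, -0.29 in the E18 pair and -0.22 in the P0 pair (adjusted p at E16 = 0.0334). Nr1h3, the liver X receptor alpha, had ratios of -1.71 and -1.47 in the E16 pairs, -0.34 in the E18 pair and -0.67 in the P0 pair (adjusted p at E16 = 0.0382). Prdm1, a repressor active in the suckling gut, had an E16 mean of -0.45 (adjusted p = 0.0482). All 4 pairs together gave lower ratios for the carbohydrate response factor Mlxipl, at -1.68 ± 0.21 (SD, n = 4) (adjusted p = 0.013), and the gut homeobox factor Cdx1, at -1.74 ± 0.47 (SD, n = 4) (adjusted p = 0.034). Mlxipl and Cdx1 differed between stages by 0.03 and -0.33 (adjusted p = 0.975 and 0.795). The nuclear receptor Nr5a2 averaged -0.70 ± 0.30 (SD, n = 4) (adjusted p = 0.0785). Both later ratios lay above both E16 ratios in 14 of the 25.

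**Figure D4:**
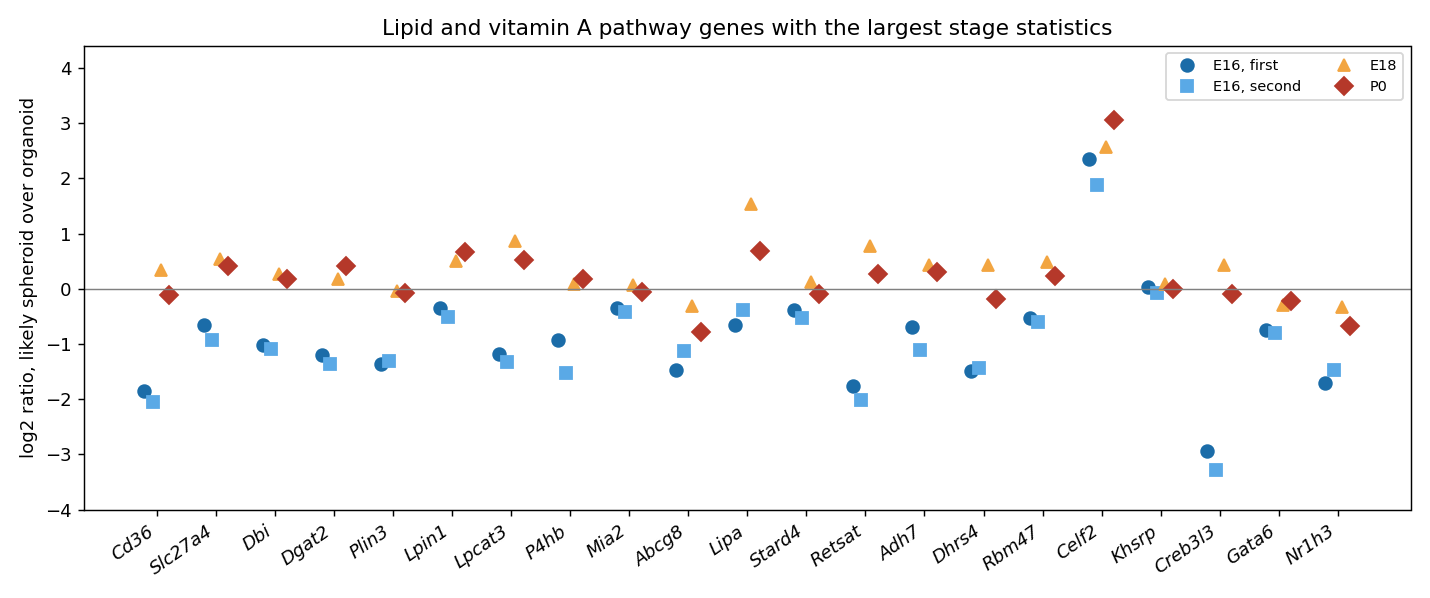
Log2 ratio (vertical axis) in each pair for the 3 genes of each of 7 pathway lists with the largest size of moderated t between stages, in list order, fatty acid uptake at the left and transcription factors at the right. Khsrp is the only one of the 21 without both later points above both E16 points, Creb3l3 has the lowest point at -3.28, and 0 of the 21 passed in the stage comparison. The 21 were picked for a large stage statistic, so that their later and E16 points lie apart largely follows from that choice.

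Markers of other enterocyte functions and of other cell types were also measured. Of 13 measured brush border genes outside fat handling, 9 were below -1 in both E16 pairs and 8 had both later ratios above both E16 ratios. Their medians were -1.64 and -1.68 in the E16 pairs, 0.28 in the E18 pair and -0.93 in the P0 pair. Cdhr5, a brush border protocadherin, had ratios of -1.47 and -1.54 in the E16 pairs, 0.28 in the E18 pair and 0.18 in the P0 pair (adjusted p at E16 = 0.0229). The fructose transporter Slc2a5 passed lower at E16 (mean -2.80, adjusted p = 0.0461). Slc2a5 and the chloride exchanger Slc26a3 had stage differences of 1.73 and 2.38 (adjusted p = 0.154 and 0.153). The sodium-glucose transporter Slc5a1 and the peptidase Dpp4 were lower over all 4 pairs, at -2.40 ± 0.58 (SD, n = 4) and -2.87 ± 0.78 (SD, n = 4) (adjusted p = 0.0288 and 0.0345), with stage differences of 0.38 and -0.38. The membrane linker Ezr averaged 0.53 ± 0.18 (SD, n = 4). The epithelial markers Epcam and Cdh1 averaged -0.63 ± 0.09 (SD, n = 4) and -0.05 ± 0.29 (SD, n = 4), and the keratins Krt8 and Krt18 0.42 ± 0.16 (SD, n = 4) and 1.44 ± 0.21 (SD, n = 4). Epcam passed lower and Krt18 higher in limma, over all 4 pairs (adjusted p = 0.0181 and 0.0151) and at E16 (adjusted p = 0.047 and 0.0335). Cdh1 and Krt8 passed in neither.

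Goblet, Paneth and enteroendocrine markers (15 genes) had medians of -1.46 and -1.19 in the E16 pairs, -2.28 in the E18 pair and -2.11 in the P0 pair. These medians were lower in both later pairs, and both later ratios lay below both E16 ratios in 9 of the 15 (24.8% of all genes). The goblet markers Tff3, Spdef, Agr2 and Clca1 differed from this. Their ratios were -1.36, -1.78, -1.09 and 0.66 in the E18 pair, and 0.49, 1.06, 0.99 and 1.50 in the P0 pair. Over all 4 pairs 4 passed, all lower, namely Chgb at -2.54, Sct at -1.79, Lyz1 at -3.21 and Itln1 at -4.01. Gcg, Neurod1 and Chga had stage differences of -3.85, -0.94 and -1.15, with adjusted p of 0.0829, 0.119 and 0.124. Gastric and fetal spheroid markers had medians over 11 genes of 2.49 and 2.42 in the E16 pairs, 2.40 in the E18 pair and 4.63 in the P0 pair. Of these, Krt7, Il1rn, Anxa1, Clu and Gja1 passed higher over all 4 pairs, with means of 2.37, 2.35, 3.25, 3.53 and 4.76. Gkn1, Gkn2, Tff1, Tff2, Ctse and Sox2 averaged between -0.01 and 3.15 and did not pass in limma (adjusted p between 0.0552 and 0.838). The list was chosen with earlier results of these data known, so its high ratios only describe it.

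Liver and yolk sac also express most of the 10 genes. Of 12 measured markers of those tissues, 6 had an E16 mean within the span of the negative controls, and the albumin gene Alb had ratios of -0.14 and -0.04 in the E16 pairs, -0.01 in the E18 pair and -0.24 in the P0 pair. Amn, which the small intestine also expresses, was lower over all 4 pairs at -1.98 ± 0.14 (SD, n = 4) (adjusted p = 0.00805). At E16 3 of the 12 passed, all lower (Amn, G6pc and Cyp3a11), with means of -2.01, -2.30 and -2.64. Other markers lay far from 0. Afp, a fetal liver and yolk sac protein, had ratios of -1.04 and -1.14 in the E16 pairs, -3.32 in the E18 pair and -4.21 in the P0 pair. Its stage difference was -2.67 (adjusted p = 0.101). Ttr had ratios of -0.86 and -1.17 in the E16 pairs, -1.03 in the E18 pair and 1.09 in the P0 pair. Serpina1a was lowest in the E18 pair, at -1.65. Of 14 mesenchyme, vessel and leukocyte markers 12 lay within the negative control span at E16, with list medians between -0.04 and -0.01 in each pair. Lyve1, Vim and Lpl averaged -0.94, -0.45 and -0.23 over 4 pairs, and 0 of the 14 passed in limma, with 2 at an unadjusted p under 0.05 (20.9% of all genes). All 5 adipocyte markers (Adipoq, Lep, Plin1, Plin4 and Retn) lay within that span. The part of these markers in the members' ratios was not tested.

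**Figure D5:**
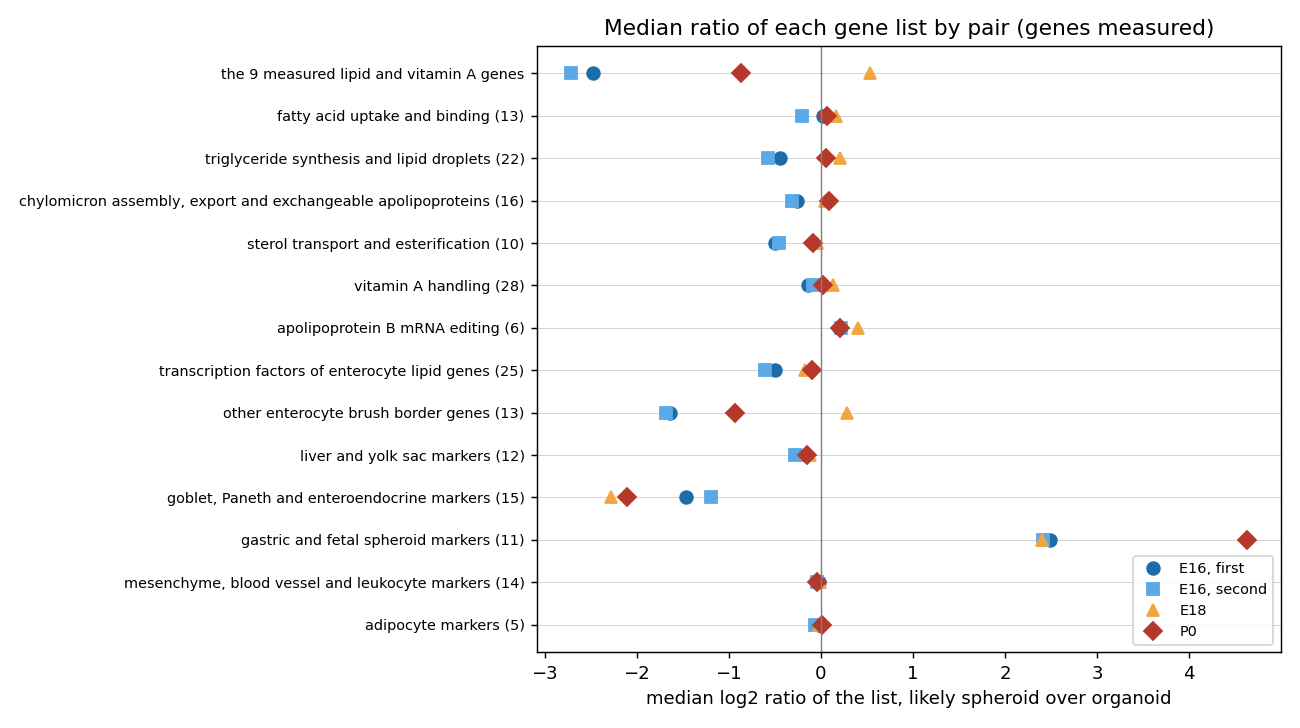
Median log2 ratio (horizontal axis) of each gene list in each pair, with the number of genes measured in brackets. The 9 lipid and vitamin A genes have the lowest E16 medians, -2.47 and -2.71, followed by the brush border genes at -1.64 and -1.68, and both lists have an E18 median above 0.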

How the data were processed

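Spheroid and organoid RNA of each of 4 animals was hybridised to 2-colour oligonucleotide arrays with the dyes swapped, per the labels and the design text. The values as deposited by the authors are read as log2 ratios with a single value for each probe in each animal, already centred, with column medians between -0.0055 and -0.001; background correction, normalization and the log base were not given in the sources used. The direction, likely spheroid over organoid, is not stated by any label. No intensities were used, so brightness over background is unknown and the number of arrays limits the precision.

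Gene names come from the platform table GEO holds (possibly dated), with symbols updated by gene ID through RefSeq's gene table. Of 22941 named probes, 22305 with the gene prefix were averaged to 15123 genes, and probes with other prefixes were left out. The 94 probes with a negative control prefix gave the control range.

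Tests were two-sided in limma 3.58.1 (R 4.3.3). On simulated data the all-pair and stage fits were checked only for returning the planted mean ratios. That check does not cover the E16 test or the calls. The stage fit joined E18 and P0 into 1 set. Members and the 13 gene lists were chosen with earlier results of these data known. Most named list genes are the 3 of a list with the largest moderated t over all 4 pairs or the 3 with the largest between stages. Those past the threshold, at E16 too, were added. Other genes follow the distance and neighbour rules in the text, except the epithelial markers and some list genes named outside these rules. Among those list genes are Aldh1a1, Tff3, Spdef, Agr2, Clca1, Gkn1, Gkn2, Tff1, Tff2, Ctse, Sox2, Alb, Ttr and Serpina1a. Alternatives were scaling, probe handling, a robust prior, array weights, a size filter, stage means, another threshold and leaving out each pair.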

Additional observations from a re-analysis of the deposited data

Results flagged for a closer look

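Rbp2 and Apobec1 had ratios below 0 in both E16 pairs and above 0 in both later pairs. The later minus E16 difference was 3.39 for Rbp2 and 1.52 for Apobec1, and neither passed the test of that difference (adjusted p = 0.111 and 0.0829).

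In 5 of 85 genes looked at, 1 pair lay far from the other 3, where chance flags about 1 in 20. The P0 pair lay apart for Fabp5, at 2.71 against 1.41 to 1.57 in the others, for Rdh10, at 2.61 against 1.78 to 1.85, and for Npc2, at -0.17 against -0.66 to -0.58. The E18 pair lay apart for Adh1, at 1.11 against -3.29 to -2.91. The second E16 pair lay apart for Plin4, at 0.04 against -0.03 to -0.02, with a 4-pair mean within the span of the negative control probes.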

How the results depend on the processing

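The count of members with each later pair above each E16 pair was 9, and that of members below -1 at E16 was 8, with scaled columns (26.2% and 2.63% of all genes) and with 1 probe per gene (26.1% and 2.6%). Leaving out a pair cannot lower either count and so says nothing about them; the share of all genes in the first order was then between 35.2% and 42.3%.

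Over all 4 pairs, 660 genes passed. The count was 1381 at a threshold of 0.1, 1417 with array weights and 3763 with the mean of the 3 stage means, and between 0 and 740 without single pairs (2 and 0 without the first and second E16 pair, 145 without P0). Members past the threshold numbered 8 with stage means, whose spread comes from the E16 pairs alone, and between 0 and 1 without single pairs (Apoc3 without E18). Apobec1, at 0.05, turned to -0.33 with array weights, and between -0.22 and 0.31 without single pairs. Gpam turned to 0.0045 with 1 probe per gene and for 1 of its probes, and Syncrip to -0.37 for 1 probe.

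Between stages, limma called 0 genes (2883 had an unadjusted p under 0.05). The count was 509 at a threshold of 0.1, with 2 members, and 104 with small ratios left out, with 4 members (Apobec1, Fabp1, Fabp2 and Rbp2). That filter, on the highest ratio in size over the 4 pairs, left 7918 genes, and keeps genes that differ. Without single pairs it was between 0 and 1544 genes and between 0 and 9 members, the highest without P0; without E18 it was 443 genes.

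At E16, 549 genes and 3 members passed. The counts were 2217 and 6 at a threshold of 0.1, 3103 and 9 with array weights, and 1451 and 9 with small ratios left out. With 1 probe per gene 269 genes passed, and with a robust prior 263. Without single pairs it was between 0 and 3319 genes and between 0 and 9 members: 0 without either E16 pair, and 3319 without E18 or P0, when the spread comes from the E16 pairs alone.

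Each value is already a ratio of the spheroid and organoid cultures within 1 animal, so the tests on the ratios are paired by animal. The stages hold different animals, so the stage comparison could not be paired.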
